A study of Mus musculus with 15 samples.

Results

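The contractile genes described here are 10 genes whose protein products build the sarcomere of fast skeletal muscle fibres: Mylpf, Mybpc2, Myh4, Myh1, Myh2, Tnni2, Tnnt3, Tnnc2, Actn3 and Myoz1. They were chosen by gene symbol, as the probe sets whose platform annotation gives 1 symbol and that symbol is in this list. Each of the 10 had 1 probe set, out of 19938 genes with such a probe set, and all 10 were among the 12056 genes bright enough to test. Expression was measured on Affymetrix arrays in gastrocnemius, a calf muscle, of C57BL/6 mice, all male and 12 months old, with 1 mouse on each array. The 4 groups were wildtype mice on the control diet (3 arrays), wildtype mice under calorie restriction (CR, 4 arrays), Sirt3 knockout mice on the control diet (4 arrays) and Sirt3 knockout mice under CR (4 arrays). How deep and long CR was, and how Sirt3 was deleted, is not given in the sources used.

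A muscle fibre is classed by the myosin heavy chain it makes. In mice Myh7 marks slow fibres, Myh2 the oxidative fast type IIA, Myh1 the intermediate type IIX and Myh4 the fastest and most glycolytic type IIB, which is the main type of the gastrocnemius. Fast fibres also use their own forms of the partner proteins: a regulatory myosin light chain (Mylpf), a myosin binding protein (Mybpc2), the 3 troponin subunits that make the thin filament respond to calcium (Tnni2, Tnnt3 and Tnnc2), and proteins of the Z-disc, where thin filaments are anchored (Actn3 and Myoz1). Since whole muscle was measured, fewer fibres of a type and less of its RNA per fibre cannot be told apart.

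All values below are deposited log2 intensities, so a difference of 1 is a doubling of the signal. The 10 genes lay between 11.03 and 12.98 on every array, against 13.77 to 14.01 for the brightest probe set of each array. Other muscle transcripts were bright too, with Acta1, skeletal alpha-actin, at a mean of 13.33 and Ckm, muscle creatine kinase, at 13.22. Ckm is also in the list of other fast fibre genes read below. Its group mean was 13.16 on the control diet and 13.28 under CR in wildtype mice, and 13.16 and 13.27 in knockout mice. The diets did not overlap for Ckm in either genotype. Acta1 was at 13.26 and 13.36 in wildtype mice, without overlap, and at 13.32 and 13.36 in knockout mice, with overlap. The Sirt3 transcript itself was at 6.38 to 6.68 on wildtype arrays and 4.94 to 6.19 on knockout arrays. Some arrays carried transcripts of other tissues. A list of 22 germ cell markers averaged 9.30 on wildtype control replicate 3 and 8.68 on knockout control replicate 1, against 5.01 to 6.05 on the other 13 arrays. A list of 14 pancreatic acinar markers averaged 12.16 on wildtype control replicate 2 and at most 5.70 elsewhere, and a list of 17 liver markers averaged 8.92 on wildtype CR replicate 4 and at most 7.84 elsewhere. The genes called in the average over genotypes are therefore also given with the 2 germ cell arrays left out, and with all 4 of these arrays left out.

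Under CR, Mylpf, the troponins, the Z-disc genes, Mybpc2 and Myh4 were brighter in both genotypes, by 0.06 to 0.50 on the log2 scale, while Myh2 was dimmer. Myh1 differed by 0.03 in wildtype and by -0.31 in knockout mice. Averaged over the genotypes, Mylpf (0.38), Actn3 (0.19), Myoz1 (0.18) and Tnni2 (0.18) rose, and no member fell (limma, adjusted p under 0.05). These are 4 of the 10 members, beside 0.647% of all 12056 genes called higher and 0.423% called lower in the same comparison. The list was chosen with earlier results of these data known, so its counts beside those shares are a description. At an unadjusted limma p under 0.05 there were 7 members higher and 1 lower, beside 13.7% and 6.4% of all genes. The median of the 10 members was 0.14 and that of all genes 0.03. Without the 2 germ cell arrays 1 member was called, Mylpf, and without the 4 arrays none. Calls over all genes went from 129 to 45 without the 2 arrays and to 5 without the 4. The median of the members was 0.14 in both of these fits.

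**Figure D1:**
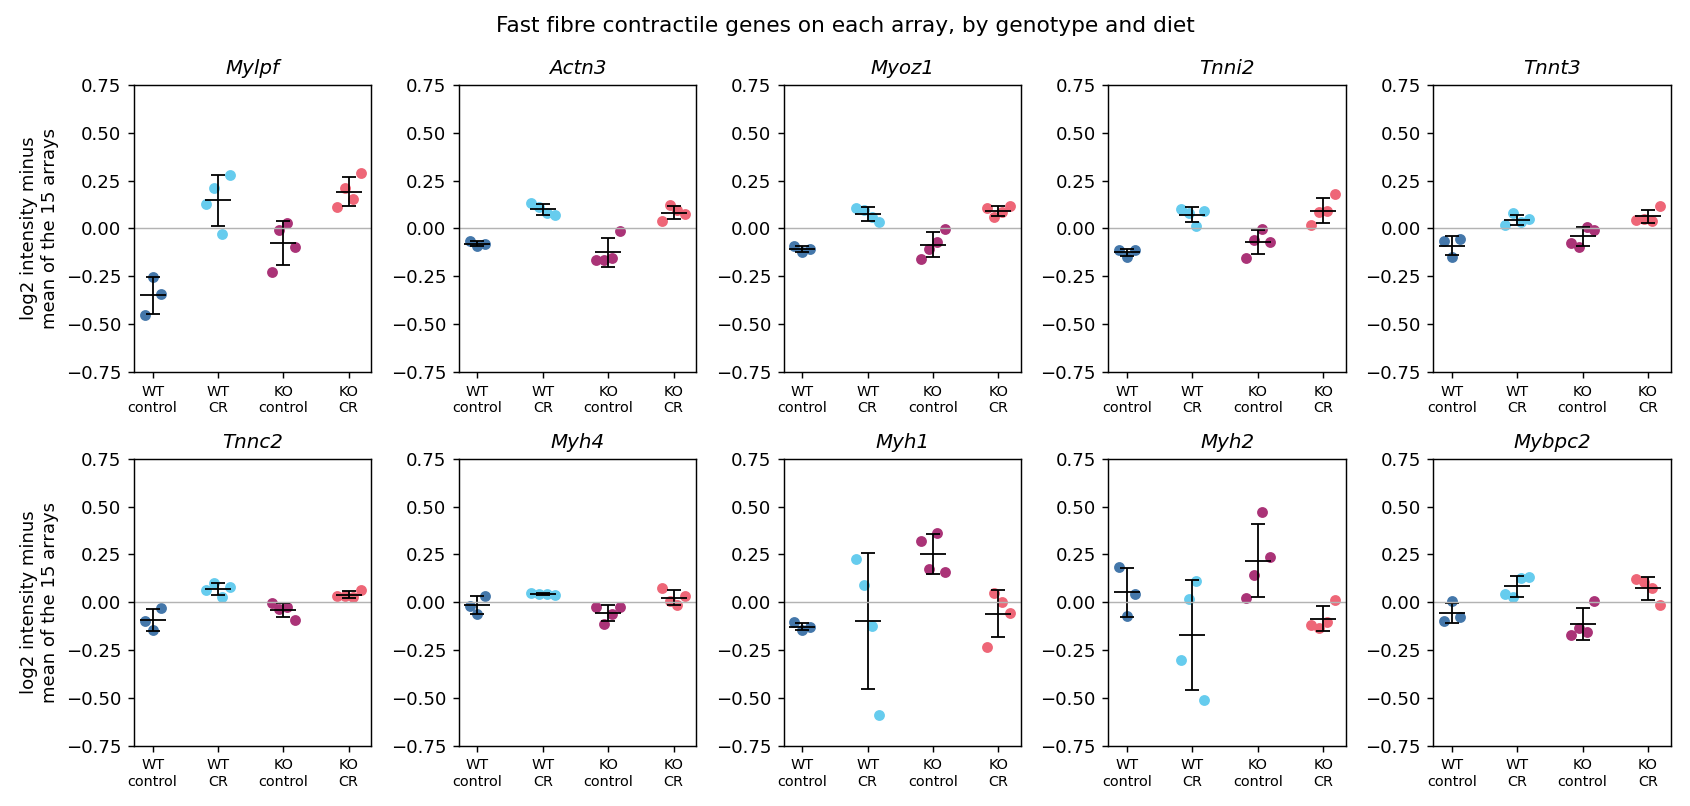
Each panel shows 1 gene: the vertical axis is the log2 intensity minus the gene's mean over the 15 arrays, each point is 1 array (1 mouse), and the black marks are the group mean and SD (n = 3 for wildtype control and 4 for the other groups). In 8 panels every wildtype CR point lies above every wildtype control point; Myh1 and Myh2 have the widest range over all arrays, 0.95 and 0.98, followed by Mylpf at 0.74, and the other 7 genes lie between 0.19 and 0.33.

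In wildtype mice alone 1 member of 10 rose, beside 0.108% of all genes called higher, and none fell, beside 0.0166% called lower. At an unadjusted limma p under 0.05 there were 7 members higher and 0 lower, beside 9.72% and 3.4% of all genes. The groups did not overlap for 8 members that were higher under CR and 0 that were lower, beside 9.55% and 2.95% of all genes. In knockout mice 0 of 10 members passed in limma, beside 0.0664% of all genes in either direction, with 6 members higher and 2 lower at an unadjusted p under 0.05 (6.79% and 5.17% of all genes). There the groups did not overlap for 7 members that were higher and 2 that were lower under CR, beside 3.91% and 3.08% of all genes. The wildtype and knockout comparisons share no array. Both use the same estimate of the spread.

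Mylpf encodes the regulatory light chain that sits on the neck of fast myosin. It was at 11.18, 11.38 and 11.29 in wildtype control muscle and at 11.76, 11.85, 11.61 and 11.91 in wildtype CR muscle. In knockout muscle it was at 11.41, 11.63, 11.67 and 11.54 on the control diet and at 11.75, 11.85, 11.79 and 11.92 under CR. Every CR array thus lay above every control array of its genotype, and the 3 wildtype control arrays were the lowest of all 15. The log2 difference with CR was 0.50 (SE 0.09, a ratio of 1.41, limma adjusted p = 0.0489) in wildtype mice, which was a rise. In knockout mice it was 0.27 (SE 0.08, a ratio of 1.20, limma adjusted p = 0.231). The wildtype call was close to the threshold and was lost in 12 of the 15 fits that left out 1 array, where the difference stayed between 0.45 and 0.56. The averaged rise of Mylpf, 0.38 (SE 0.06, limma adjusted p = 0.0127), was called in all 15 of those fits. It stood at 0.36 without the 2 germ cell arrays (limma adjusted p = 0.0420) and at 0.39 without the 4 arrays (limma adjusted p = 0.0850).

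Mybpc2 encodes the fast form of myosin binding protein C, which sits along the thick filament and limits how cross-bridges form. It read 12.09, 12.19 and 12.11 in wildtype control muscle and 12.23, 12.21, 12.31 and 12.32 under CR. In knockout muscle it read 12.01, 12.05, 12.03 and 12.19 on the control diet and 12.31, 12.29, 12.26 and 12.17 under CR. The wildtype groups were separate, by a narrow gap. The knockout groups overlapped through control replicate 4 and CR replicate 4. The CR difference was 0.14 in wildtype and 0.19 in knockout mice, and 0.16 on average (SE 0.04, limma adjusted p = 0.0772), which did not pass.

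The 3 fast troponin genes were each brighter under CR without overlap in both genotypes. Tnni2 encodes the inhibitory subunit, which holds actin off when calcium is low. Its values were 12.31, 12.27 and 12.30 in wildtype control, 12.52, 12.50, 12.43 and 12.51 in wildtype CR, 12.27, 12.36, 12.42 and 12.35 in knockout control, and 12.44, 12.51, 12.51 and 12.60 in knockout CR muscle. Its average CR difference of 0.18 (SE 0.04, limma adjusted p = 0.0461) was called as a rise, with 0.20 in wildtype and 0.17 in knockout mice. This call was lost in 13 of 15 fits without 1 array, where the difference ran from 0.17 to 0.19. Without the 2 germ cell arrays Tnni2 stood at 0.17 (limma adjusted p = 0.0905) and without the 4 arrays at 0.16 (limma adjusted p = 0.335).

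Tnnt3 encodes the subunit that ties troponin to tropomyosin, and Tnnc2 the subunit that binds calcium. Tnnt3 read 12.62, 12.54 and 12.63 in wildtype control and 12.71, 12.77, 12.72 and 12.73 in wildtype CR muscle. In the knockout it read 12.61, 12.59, 12.70 and 12.68 on the control diet and 12.73, 12.73, 12.73 and 12.80 under CR. The differences between the group means of Tnnt3 were 0.14 in wildtype and 0.10 in knockout mice. Tnnc2 differed by 0.16 in wildtype mice, from 12.63 to 12.75 on the control diet to 12.81 to 12.88 under CR. In knockout mice it differed by 0.08, from 12.69 to 12.77 to 12.80 to 12.84. Averaged over genotypes, both differences were 0.12 (SE 0.04 and 0.03) and neither passed, with limma adjusted p of 0.107 for Tnnt3 and 0.101 for Tnnc2. In the RefSeq gene order Tnni2 and Tnnt3 are separated by 1 protein-coding gene, Lsp1.

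The Z-disc genes showed the same direction in both genotypes. Actn3 encodes alpha-actinin-3, the crosslinker of actin filaments that fast fibres use. It read 12.79, 12.76 and 12.77 in wildtype control and 12.98, 12.96, 12.93 and 12.92 in wildtype CR muscle, and 12.68, 12.68, 12.70 and 12.84 in knockout control and 12.89, 12.97, 12.94 and 12.92 in knockout CR muscle. The diets were separate in both genotypes, and knockout control replicate 4 stood above the other 3 of its group. The average difference was 0.19 (SE 0.04, a ratio of 1.14, limma adjusted p = 0.0328), with 0.18 in wildtype and 0.21 in knockout mice. Its call was lost in 12 of the 15 fits without 1 array. Actn3 stood at 0.19 without the 2 germ cell arrays (limma adjusted p = 0.0807) and at 0.18 without the 4 arrays (limma adjusted p = 0.278).

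Myoz1 encodes calsarcin-2, a fast fibre protein that binds alpha-actinin and the phosphatase calcineurin at the Z-disc. It was at 12.26, 12.23 and 12.25 in wildtype control, 12.47, 12.46, 12.42 and 12.39 in wildtype CR, 12.20, 12.25, 12.29 and 12.35 in knockout control, and 12.47, 12.42, 12.44 and 12.48 in knockout CR muscle. No CR array lay within the range of the control arrays of either genotype. The differences were 0.18 in wildtype and 0.18 in knockout mice, and the average, 0.18 (SE 0.04, limma adjusted p = 0.0348), was called as a rise. This call too was lost in 13 of the 15 fits. The difference of Myoz1 was 0.17 in the fit that left out the 2 germ cell arrays and 0.17 in that leaving out 4, with limma adjusted p of 0.0835 and 0.279.

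**Figure D2:**
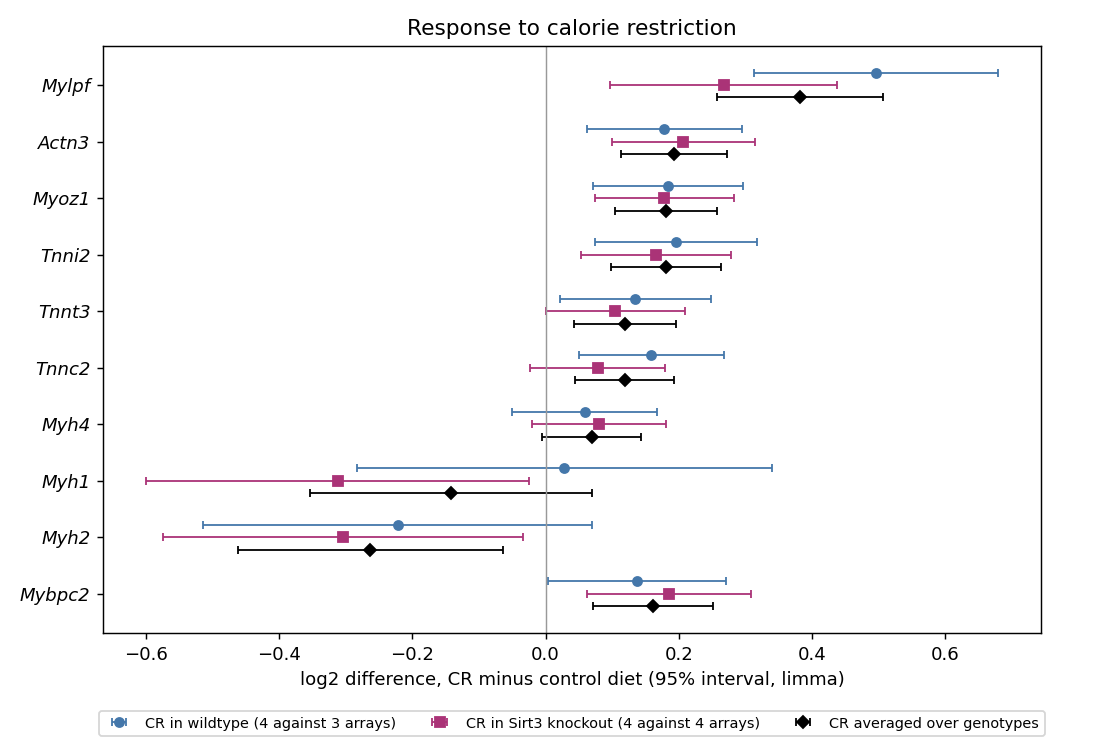
Points are limma log2 differences, CR minus control diet, for each gene in wildtype mice, in knockout mice and averaged, and bars are 95% intervals. The averages of 8 genes lie above 0, from 0.07 for Myh4 to 0.38 for Mylpf, while those of Myh1 and Myh2 lie at -0.14 and -0.26.

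None of the 3 adult fast myosin heavy chains passed the limma test in any comparison, and under CR their mean differences ran from below 0 for Myh2 to above 0 for Myh4. Their genes lie next to each other on 1 chromosome, in the order Myh2, Myh1, Myh4, with no protein-coding gene between them in the RefSeq table. The promoters are shown because the 3 genes mark the types of fast fibre and lie side by side. Each window runs from 250 bases before to 50 bases after the start of the gene, on the plus strand of GRCm38.p6 (RefSeq), at chr11:67170777-67171076 for Myh2, chr11:67199852-67200151 for Myh1 and chr11:67237562-67237861 for Myh4. Capitals mark the longest run of bases that all 3 windows hold, 20 bases long. Counted from the start of the gene, its first base is at -130 in Myh2, -165 in Myh1 and -163 in Myh4.
Myh2: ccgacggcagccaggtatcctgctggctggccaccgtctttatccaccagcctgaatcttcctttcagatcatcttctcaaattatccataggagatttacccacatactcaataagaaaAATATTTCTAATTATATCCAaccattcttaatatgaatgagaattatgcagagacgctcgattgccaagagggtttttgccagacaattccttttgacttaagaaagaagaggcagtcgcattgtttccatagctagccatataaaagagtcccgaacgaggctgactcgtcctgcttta
Myh1: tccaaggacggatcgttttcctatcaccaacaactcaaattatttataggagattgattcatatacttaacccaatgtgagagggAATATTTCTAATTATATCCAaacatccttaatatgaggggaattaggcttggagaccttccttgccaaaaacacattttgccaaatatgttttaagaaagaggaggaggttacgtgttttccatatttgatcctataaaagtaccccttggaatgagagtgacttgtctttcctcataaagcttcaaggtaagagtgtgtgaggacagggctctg
Myh4: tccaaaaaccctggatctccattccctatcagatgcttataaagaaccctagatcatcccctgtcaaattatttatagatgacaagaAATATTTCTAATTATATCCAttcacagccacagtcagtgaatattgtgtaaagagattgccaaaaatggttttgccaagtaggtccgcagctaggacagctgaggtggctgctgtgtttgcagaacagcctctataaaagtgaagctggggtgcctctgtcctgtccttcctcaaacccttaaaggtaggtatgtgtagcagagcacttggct
The run occurred in 3 of the 32851 promoter windows of the table, on either strand, which are these 3. A TATA box (TATAAA, either strand) was found in all 3 windows, beside 13.6% of all windows. A site for MEF2, a muscle transcription factor, matched once in the Myh1 window and once in the Myh4 window, beside 3.19% of all windows. The E-box CANNTG, the binding sequence of the MyoD family, matched at 3 places in the Myh4 window and at none in the Myh1 and Myh2 windows, beside 72.3% of all windows with a match. These matches describe the letters of the windows.

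Myh4, the type IIB chain, had the narrowest range of the 10 genes, 0.19 over all arrays, at a mean of 12.81. Myh1, Mylpf and Myh2, with the widest ranges, had the lowest means of the 10, at 11.62, 11.64 and 11.80. Whether the size of a range or of a difference depends on the brightness of the probe set was not tested. Myh4 was at 12.79, 12.75 and 12.85 in wildtype control and at 12.86, 12.86, 12.86 and 12.85 in wildtype CR muscle. Knockout muscle gave 12.79, 12.70, 12.75 and 12.79 on the control diet and 12.89, 12.82, 12.80 and 12.85 under CR. The diets were separate in both genotypes, narrowly, and the CR differences of 0.06 (95% interval -0.05 to 0.17) and 0.08 (-0.02 to 0.18) did not pass in limma, with adjusted p of 0.617 and 0.524.

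Myh1, the type IIX chain, read 11.51, 11.47 and 11.49 in wildtype control and 11.84, 11.71, 11.49 and 11.03 in wildtype CR muscle. In knockout muscle it read 11.94, 11.79, 11.98 and 11.77 on the control diet and 11.38, 11.67, 11.62 and 11.56 under CR. The wildtype CR arrays thus spread to both sides of the closely grouped controls, whereas in the knockout every CR array lay below every control array. The CR difference was 0.03 (SE 0.15, limma adjusted p = 0.944) in wildtype mice and 0.19 without wildtype CR replicate 4. In knockout mice it was -0.31 (SE 0.13, limma adjusted p = 0.378).

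Myh2, the type IIA chain, was at 11.98, 11.72 and 11.84 in wildtype control, 11.49, 11.81, 11.91 and 11.29 in wildtype CR, 11.82, 11.94, 12.27 and 12.03 in knockout control, and 11.68, 11.66, 11.69 and 11.81 in knockout CR muscle. The wildtype groups overlapped and the knockout groups did not. Its CR difference was -0.22 (SE 0.14) in wildtype and -0.30 (SE 0.13) in knockout mice, and -0.26 on average (SE 0.09, limma adjusted p = 0.151), none of which passed. Without wildtype CR replicate 4, the array with the highest liver list mean, the wildtype difference of Myh2 was -0.11. The 3 myosin messages are close in sequence, and whether their probes also bind each other's transcripts was not tested.

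The slow fibre list, 15 genes such as the slow myosin and the slow troponins, moved over the arrays more widely than the fast genes. The slow list was also dimmer, at a mean of 9.22 against 12.31 for the 10 members. Its mean ran from 8.98 to 9.78 in wildtype control, 8.57 to 10.12 in wildtype CR, 9.01 to 9.56 in knockout control and 8.81 to 9.28 in knockout CR muscle. The lowest value of the slow list, like the lowest values of Myh1 and Myh2, was that of wildtype CR replicate 4, and the highest was that of wildtype CR replicate 3. In limma 0 of the 15 slow genes passed in wildtype mice, in knockout mice or on average. At an unadjusted limma p under 0.05, 1 was higher and 0 lower in wildtype mice, beside 9.72% and 3.4% of all genes. In knockout mice 0 were higher and 2 lower, beside 6.79% and 5.17% of all genes. On average there were 0 in either direction, beside 13.7% higher and 6.4% lower. Of the 15 genes, 5 had a difference above 0 in wildtype mice, 3 in knockout mice and 3 on average. The medians of the list were -0.29, -0.09 and -0.17, beside 0.04, 0.01 and 0.03 for all genes. The 2 smallest p in wildtype mice belonged to Casq2 (0.50) and Myl6b (0.52), against the direction of the list median. Those in knockout mice belonged to Csrp3 (-1.20) and Ankrd2 (-0.75). The limma adjusted p of these genes was 0.216 or more. Casq2 stood at 0.03 without the 4 arrays. The part of slow muscle content in the values of Myh1 and Myh2 was not tested.

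**Figure D3:**
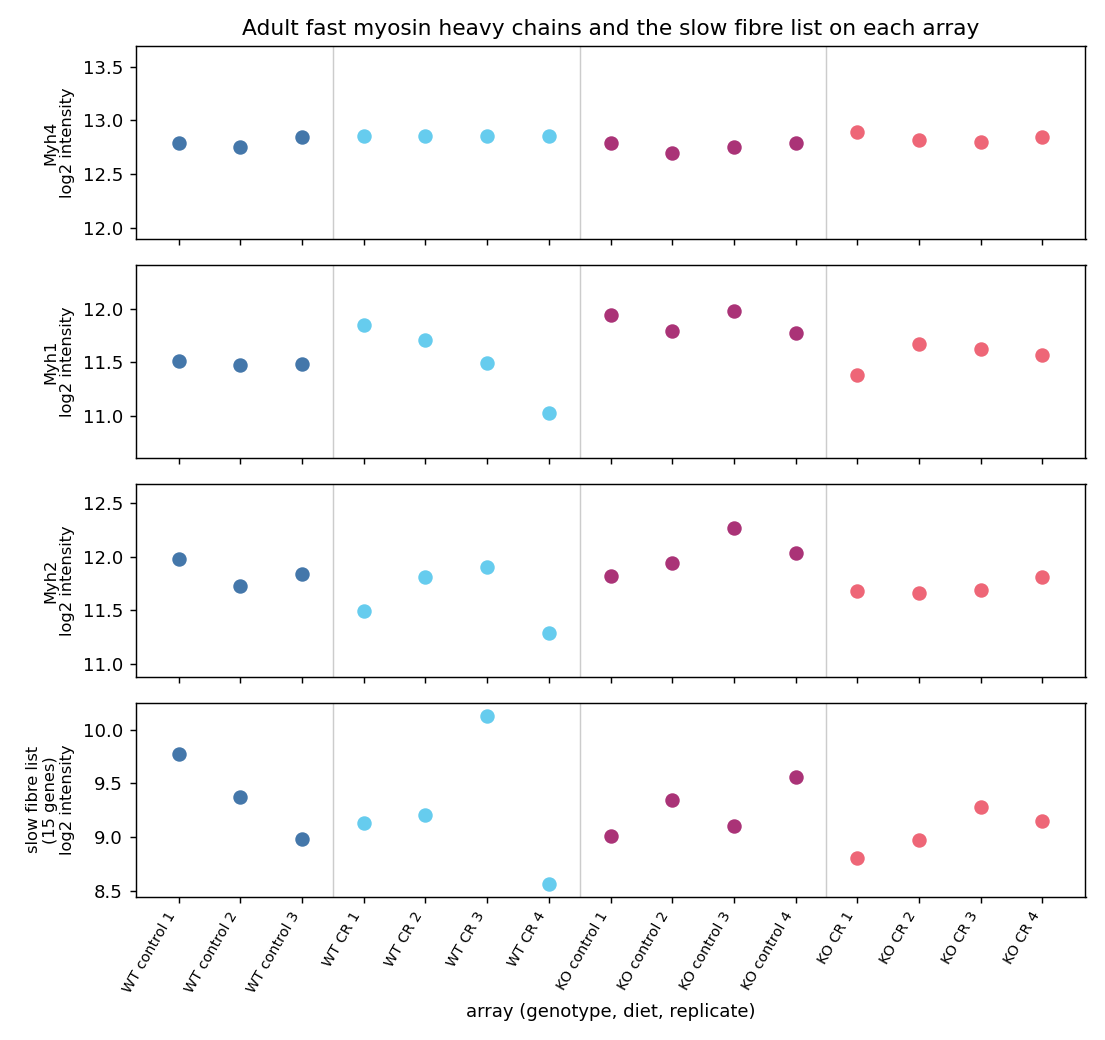
Log2 intensity of the 3 adult fast myosin heavy chains and the mean of 15 slow fibre genes on each of the 15 arrays, with the same span of 1.8 log2 units on each vertical axis. Myh4 stays within 0.19, while wildtype CR replicate 4 is the lowest array for Myh1 (11.03), Myh2 (11.29) and the slow list (8.57).

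The CR responses of the genotypes were compared as a difference of differences, knockout minus wildtype. For the 10 members 0 passed in limma, beside 0% of all genes, and 0 had an unadjusted p under 0.05, beside 5.71% of all genes. The widest differences were those of Myh1, -0.34 (95% interval -0.77 to 0.08), and Mylpf, -0.23 (-0.48 to 0.02). For Actn3 it was 0.03 (-0.13 to 0.19), for Myoz1 -0.01 (-0.16 to 0.15) and for Tnni2 -0.03 (-0.20 to 0.13). The intervals of these 3 genes thus allow a response of the knockout that is larger or smaller by up to 0.20.

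Knockout and wildtype muscle were also compared on each diet. On the control diet 0 of the 10 members passed in limma (0% of all genes), and 2 had an unadjusted p under 0.05, both higher in the knockout, beside 5.08% of all genes higher and 1.94% lower. These were Myh1, 0.38 higher (SE 0.15, limma adjusted p = 0.651), and Mylpf, 0.27 higher (SE 0.09, limma adjusted p = 0.599). For both, the 4 knockout arrays lay above the 3 wildtype arrays, as they did for 3.71% of all genes, while 1.29% lay wholly below. These differences share the control arrays with the CR differences given above, and the 3 wildtype control arrays hold the acinar array and a germ cell array.

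Under CR 0 members passed, beside 0.0166% of all genes, and 0 had an unadjusted limma p under 0.05, beside 5.92%. The differences there ran from -0.03 for Tnnc2 to 0.08 for Myh2, and the genotypes overlapped for every member, while they did not for 4.6% of all genes. Averaged over the diets, 0 passed and 1, Mylpf at 0.16 (SE 0.06, limma adjusted p = 0.645), had an unadjusted p under 0.05, beside 4.33% of all genes higher and 2.85% lower.

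Other genes typical of fast fibres, 22 of 23 listed being bright enough to test, were read in the same way. Averaged over genotypes, 3 rose with CR and 0 fell, beside 0.647% and 0.423% of all genes, with a median of 0.11 beside 0.03 for all genes. Gpd1, the cytosolic glycerol-3-phosphate dehydrogenase, rose by 0.40 (SE 0.07) and Ampd1, the muscle AMP deaminase, by 0.22 (SE 0.04), each with a limma adjusted p of 0.0313. Pvalb, the calcium buffer parvalbumin, rose by 0.15 (SE 0.03, limma adjusted p = 0.0484). At an unadjusted p under 0.05, 13 of the list were higher and 1 lower, beside 13.7% and 6.4% of all genes. In wildtype mice 0 of the 22 passed, with 7 higher and 1 lower at an unadjusted p under 0.05, beside 9.72% and 3.4% of all genes. In knockout mice 0 passed, with 9 higher and 1 lower, beside 6.79% and 5.17%. Without the 2 germ cell arrays Gpd1 was called, at 0.36 (limma adjusted p = 0.0420), and Ampd1 and Pvalb were not, at 0.23 and 0.17 (limma adjusted p of 0.0716 and 0.0740). Smtnl1 was then called lower, at -0.62 (limma adjusted p = 0.0490), against -0.48 over all arrays (limma adjusted p = 0.0815), and it is named after its values were seen. Without the 4 arrays 0 of the 22 passed, with 8 higher and 1 lower at an unadjusted limma p under 0.05. When single arrays were left out, the calls were lost in 6 of 15 fits for Gpd1, 8 for Ampd1 and 15 for Pvalb. Myl1, another fast myosin light chain in this list, had a mean of 12.85 on the control diet and 12.89 under CR in wildtype mice. In knockout mice its means were 12.83 and 12.87, and the diets overlapped in both genotypes.

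Regulators of fibre type gave 1 gene higher and 1 lower among 19 tested, on average over genotypes, beside 0.647% and 0.423% of all genes. Mafa, one of the large Maf transcription factors that in mice switch on Myh4, read 7.26, 7.19 and 7.12 in wildtype control, 7.74, 7.90, 7.65 and 7.57 in wildtype CR, 7.34, 7.23, 7.38 and 7.44 in knockout control, and 7.75, 7.71, 7.84 and 7.64 in knockout CR muscle. All 8 CR arrays lay above all 7 control arrays, and the average rise was 0.46 (SE 0.06, limma adjusted p = 0.00590). Rcan1, an inhibitor of calcineurin that calcineurin signalling itself induces, was lower by a log2 difference of -0.90 (SE 0.14), a fall at a limma adjusted p of 0.0163. Both calls held in all 15 fits without 1 array. Without the 2 germ cell arrays Mafa stood at 0.44 (limma adjusted p = 0.0398) and Rcan1 at -0.85 (limma adjusted p = 0.0420). Without the 4 arrays neither passed, with Mafa at 0.45 and Rcan1 at -0.77 (limma adjusted p of 0.0850 and 0.173). The core recognition sequence of large Maf factors (TGCTGA, either strand) was in 19.5% of all promoter windows and in none of the 6 members with a window in the table, which were Myh2, Myh1, Myh4, Mylpf, Mybpc2 and Tnnc2.

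Among 24 general sarcomere genes, 1 rose and 1 fell on average over genotypes, beside 0.647% and 0.423% of all genes. At an unadjusted limma p under 0.05, 6 were higher and 8 lower, beside 13.7% and 6.4%. The list median was 0.05, beside 0.03 for all genes. In wildtype mice 6 were higher and 2 lower, beside 9.72% and 3.4%, and in knockout mice 2 and 8, beside 6.79% and 5.17%. Capzb, which caps actin filaments at the Z-disc, rose by 0.19 on average (SE 0.04, limma adjusted p = 0.0461). Klhl40, which stabilises thin filament proteins, fell, with a log2 difference of -1.05 (SE 0.20, limma adjusted p = 0.0329). Neither passed without the 2 germ cell arrays, where Capzb was at 0.18 and Klhl40 at -0.97, nor without the 4 arrays, where they were at 0.17 and -0.82. When single arrays were left out, the calls were lost in 14 and 12 of 15 fits. Of 9 developmental contractile genes tested, Actc1, cardiac alpha-actin, and Mybph, myosin binding protein H, were called higher on average and 0 lower, at 0.85 (SE 0.11) and 0.59 (SE 0.11), with limma adjusted p of 0.00751 and 0.0313. Within the genotypes, Mybph rose by 1.35 in wildtype mice (SE 0.16, limma adjusted p = 0.00546) and differed by -0.16 in knockout mice (SE 0.15, limma adjusted p = 0.677). Actc1 rose by 1.33 in wildtype mice (SE 0.16, limma adjusted p = 0.00546) and differed by 0.37 in knockout mice (SE 0.15, limma adjusted p = 0.342). The difference between the genotypes' responses did not pass for Mybph (-1.51, SE 0.22, limma adjusted p = 0.0822) or Actc1 (-0.96, SE 0.22, limma adjusted p = 0.641). The averaged calls of both held without the 2 germ cell arrays. With the 4 arrays left out that of Actc1 held (limma adjusted p = 0.0429) and that of Mybph did not (limma adjusted p = 0.0850). The averaged call of Mybph was lost in 8 of 15 fits without 1 array. Markers of other cell types gave 0 passing genes in the average over genotypes in limma: 0 of 12 tendon, 9 adipocyte, 12 macrophage and leukocyte, 12 endothelial, 9 smooth muscle and pericyte, 2 erythrocyte, 6 Schwann cell, 16 germ cell, 10 acinar and 15 liver genes. At an unadjusted limma p under 0.05 there were 9 tendon, 7 macrophage, 6 germ cell and 1 acinar gene lower, beside 6.4% of all genes. Higher were 4 adipocyte, 3 smooth muscle and 2 erythrocyte genes, beside 13.7% of all genes. The tendon list mean ran from 7.68 to 7.97 in wildtype control and 6.79 to 7.49 in wildtype CR muscle, without overlap, and from 7.17 to 7.51 and 6.67 to 7.36 in knockout muscle. All 12 tendon markers were above the filter value of 5.32, and the part of tendon in the values of the fast genes was not tested.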

How the data were processed

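Biotin-labelled cRNA from the gastrocnemius of each mouse was run on 1 Affymetrix array, per the labels' protocols. The deposited values are log2 intensities, and RMA is the tool that the submitters' processing notes name. Its version and any batches are not given in the sources used. No further normalization was applied. Precision is limited by the number of arrays, 3 or 4 per group.

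Genes were named from the platform annotation (21789 of 35556 probe sets with 1 symbol) and represented by their brightest probe set. Genes with a mean under 5.32, the 40th percentile of listed probe sets, were left out, leaving 12056. All 15 arrays were fitted with 1 mean per group in limma 3.58.1 (R 4.3.3, lmFit and eBayes). Two-sided p-values were adjusted by Benjamini-Hochberg over all 12056 genes within each of 7 contrasts and a threshold of 0.05. Errors are moderated standard errors, and intervals are 95%. The members, the gene lists and the other arrays left out were chosen with earlier results of these data known. Named outside the members were, per list, up to 4 genes past the threshold, the 2 smallest p of the fast and slow lists in each genotype, and the 5 genes most like the members' mean. Acta1 and Ckm were named as checks of the tissue. The fit was tested on simulated data: of 66 genes changed by 0.2 on the log2 scale among 12056, it recovered 7.6% for CR in wildtype, 3% for CR in knockout, 19.7% for CR averaged over genotypes and 0% for the difference between genotypes. Of 66 changed by 0.5 it recovered 57.6%, 59.1%, 81.8% and 30.3%. Of 66 changed by 1 it recovered 93.9%, 95.5%, 100% and 86.4%. In each comparison 198 genes were changed in all, and 5, 4, 13 and 6 unchanged genes were called. The changed genes were drawn at random from all genes tested, and the noise was independent between genes, with no deviation shared over an array. The rates for the members themselves were not tested. Promoter sequences are RefSeq's (GRCm38.p6). Alternatives were 10 other settings of filter, probe sets, scaling, prior, weights, samples and block, the fits without 2 and 4 arrays, and leaving out each array. Plots were made with matplotlib 3.10.9 (Python 3.11.15).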

Additional observations from a re-analysis of the deposited data

Results flagged for a closer look

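In 30 sets of 4 arrays (10 genes in the 3 groups of 4), 2 had 1 array far from the other 3, where chance alone gives about 1 set in 20. Actn3 was at 12.84 on knockout control replicate 4, against 12.68 to 12.70 on the other knockout control arrays, and its CR difference in knockout mice was 0.21 with this array and 0.24 without it. Tnnt3 was at 12.80 on knockout CR replicate 4, against 12.73 on the other 3, and its CR difference in knockout mice was 0.10 with and 0.09 without it.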

How the results depend on the processing

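The count of members past the threshold stayed at 0 under every alternative run for CR in knockout mice, for the difference between the genotypes' CR responses and for the 3 comparisons of knockout with wildtype. For CR in wildtype mice the count of 1 became 0 without a filter, with the mean of probe sets, with every probe set tested singly, with quantile normalization, with centring on the median, with only the groups compared, with the replicate block and without the 2 or the 4 arrays. It was 0 to 1 when each array was left out. For CR averaged over genotypes the count of 4 became 1 without a filter, with quantile normalization, with centring, with the replicate block and without the 2 arrays, 0 without the 4 arrays and 7 with a trended and robust prior, and it was 1 to 4 when each array was left out, 4 with wildtype control replicate 1 left out, 3 with replicate 4 of the knockout controls or replicate 1 of the knockout CR group left out and 1 with any other left out. Of 9 other genes named as called in that average, 5 were called without the 2 arrays and 1 without the 4, all 9 in the same direction. The causes were not tested. Without the 4 arrays 1 wildtype control array remains, replicate 1, assumed to vary like the other groups. The liver list mean of that array was 7.74, against a median of 6.36 over the arrays. The fit of only the groups compared gives no separate value for the difference of responses or the averages. Same-numbered arrays of different groups correlated over 0.1 in 7 of 21 pairs (range -0.64 to 0.50). Whether same-numbered arrays share a batch is not given in the sources used, and these correlations cannot tell. The replicate block changed no other count. With the scaling alternatives the median of all genes moved most for CR in knockout mice with centring, by -0.032. The median of the members averaged over genotypes was 0.11 with quantile normalization and 0.12 with centring, against 0.14 in the main fit. In wildtype mice it was 0.13 and 0.14, against 0.15, and in knockout mice 0.10 and 0.10, against 0.13.

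Differences near 0 changed sign under some settings. In wildtype CR, Myh1 went to -0.038 with quantile normalization and ran from -0.080 to 0.19 when each array was left out. In the difference between CR responses, Myh4 went to -0.0015 with centring and Myoz1 to 0.0010 with the replicate block; without single arrays Myoz1 ran from -0.031 to 0.021, Myh4 from -0.0028 to 0.045 and Myh2 from -0.20 to 0.012. For knockout against wildtype on the control diet, Mybpc2 went to 0.0022 without the 4 arrays, and Myoz1 ran from -0.0041 to 0.048. For knockout against wildtype under CR, centring gave -0.0083 for Myoz1, -0.0029 for Tnni2 and -0.0084 for Tnnt3, array weights gave -0.017 for Myh1, and the fit without the 4 arrays gave -0.12 for Myh1, -0.029 for Myh2 and 0.0062 for Mybpc2. Without single arrays Mylpf ran from -0.014 to 0.089, Tnni2 from -0.0057 to 0.047, Tnnt3 from -0.00097 to 0.029, Myh1 from -0.12 to 0.15, Myh2 from -0.029 to 0.18 and Mybpc2 from -0.029 to 0.018. Averaged over diets, Tnnc2 went to -0.0021 with centring and ran from -0.0022 to 0.027, and Mybpc2 went to 0.0042 without the 4 arrays.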

Other observations

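Over the 15 arrays, the genes outside the list whose log2 values followed the mean of the 10 members most closely were Aldoa, the fast muscle aldolase of glycolysis (Pearson r = 0.93, Spearman rho = 0.94), Cnot3 (r = 0.91, rho = 0.92), Emc8 (r = 0.90, rho = 0.89), Pdk2, a kinase that turns off pyruvate dehydrogenase (r = 0.89, rho = 0.86), and Mars2 (r = 0.88, rho = 0.89). They were picked as the highest of all tested genes and share the arrays and the normalization with the members, so these values are a description with no test.

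The promoter of Mylpf, the member with the widest rise, is shown for comparison with those of the myosin chains. Its window on the plus strand of GRCm38.p6 (RefSeq) is chr7:127211358-127211657, and the capitals mark its only match to the E-box CANNTG, whose first base is at -51 from the start of the gene.
Mylpf: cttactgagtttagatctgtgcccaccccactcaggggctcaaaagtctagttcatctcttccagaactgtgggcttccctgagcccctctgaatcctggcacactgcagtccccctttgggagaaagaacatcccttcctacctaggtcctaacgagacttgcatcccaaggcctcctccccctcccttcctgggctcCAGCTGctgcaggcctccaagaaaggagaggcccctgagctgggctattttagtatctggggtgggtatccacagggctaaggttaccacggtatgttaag
No match to TATAAA or to the MEF2 site was found in this window.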
